A study of Mus musculus with 4 samples.

Results

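Chromatin accessibility and occupancy of the histone variant H2A.Z were read at 10 genes of mitosis in the adult mouse liver. These were the cyclin genes Ccnb1 and Ccna2, the gene of their kinase Cdk1, the mitotic kinase genes Plk1, Aurka, Aurkb and Bub1, the chromosome protein genes Mki67 and Top2a, and the transcription factor gene Foxm1. The genes were chosen by name, as 10 of the 21938 protein-coding genes of GENCODE vM21 on chromosomes 1 to 19, X and Y. All called peaks in each gene or within 5 kb of its transcription start site (TSS, the 5′ end of the gene) were collected in GRCm38. A working name for the group calls these genes silent in the quiescent liver, but their RNA was not analysed here, so that name could not be checked.

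The data came from 2 livers of male C57Bl/6 mice of 8 to 12 weeks on a normal diet. The WT liver was Uhrf1-Fl/fl without Cre, and the Uhrf1hepKO liver was Uhrf1-fl/fl;Alb:Cre, so both carried the floxed alleles. The albumin promoter drives Cre in hepatocytes, while the other cells of the liver keep Uhrf1, which encodes a protein needed to copy DNA methylation when DNA is replicated. ATACseq, which uses the Tn5 transposase to cut and tag accessible DNA, and ChIPseq for H2A.Z after digestion with micrococcal nuclease were both made from these same livers. This gave 4 libraries with 1 per assay and genotype, so the spread between mice is unknown and no difference between genotypes was tested.

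Genes of mitosis are transcribed late in the cell cycle and are repressed in resting cells. The MuvB core of the DREAM complex binds a short element near their start, the cell cycle homology region, and in dividing cells the same core works with B-Myb and Foxm1 as an activator. CCAAT boxes, bound by NF-Y, often lie close by. Most hepatocytes of an adult liver are at rest but can divide again after part of the liver is lost. H2A.Z is typically carried by the nucleosomes on either side of an accessible start site.

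The promoters are shown first because the peaks described below lie on or beside them. RefSeq promoter windows of GRCm38.p6, from 250 bases before to 50 after the annotated start, matched 7 of the 10 genes. Ccna2, Aurkb and Foxm1 had no match. The stretches below, written 5′ to 3′ on the strand of the gene, stop before or shortly after the TSS, and for Aurka the stretch begins after the TSS of the neighbouring gene Cstf1. Capitals mark CCAAT and the cell cycle homology region (TTTGAA or TTCGAA) on either strand, so that ATTGG is CCAAT and TTCAAA is TTTGAA read on the opposite strand. Cdk1 (chr10:69352913-69353162, minus strand), Top2a (chr11:99024190-99024439, minus strand) and Aurka (chr2:172370571-172370680, minus strand) had an ATACseq peak over the TSS in both genotypes. Plk1 (chr7:122159185-122159434, plus strand) had one in Uhrf1hepKO only. Bub1 (chr2:127831860-127832109, minus strand) and Mki67 (chr7:135716380-135716629, minus strand) had no ATACseq peak at the TSS but had H2A.Z peaks within 5 kb of it. Those of Bub1 reached into the promoter window in both genotypes, and those of Mki67 lay outside it.
Cdk1: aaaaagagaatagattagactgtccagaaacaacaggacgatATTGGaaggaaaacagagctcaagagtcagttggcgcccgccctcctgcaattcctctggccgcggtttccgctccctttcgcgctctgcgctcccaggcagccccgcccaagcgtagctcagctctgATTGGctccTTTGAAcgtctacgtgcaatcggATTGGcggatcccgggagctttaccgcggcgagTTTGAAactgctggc
Top2a: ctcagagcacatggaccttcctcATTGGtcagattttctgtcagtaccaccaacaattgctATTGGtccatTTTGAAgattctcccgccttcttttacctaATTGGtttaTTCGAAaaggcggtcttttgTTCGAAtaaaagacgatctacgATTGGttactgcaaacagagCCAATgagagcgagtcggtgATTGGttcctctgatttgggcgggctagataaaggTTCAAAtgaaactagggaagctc
Aurka: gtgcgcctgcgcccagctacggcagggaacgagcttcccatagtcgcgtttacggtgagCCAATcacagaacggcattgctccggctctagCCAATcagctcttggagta
Plk1: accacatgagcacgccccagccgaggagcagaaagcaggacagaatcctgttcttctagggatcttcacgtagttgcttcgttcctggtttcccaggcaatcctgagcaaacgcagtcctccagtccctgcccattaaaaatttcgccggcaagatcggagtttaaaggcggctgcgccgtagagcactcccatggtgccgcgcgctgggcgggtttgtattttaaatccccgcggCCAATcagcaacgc
Bub1: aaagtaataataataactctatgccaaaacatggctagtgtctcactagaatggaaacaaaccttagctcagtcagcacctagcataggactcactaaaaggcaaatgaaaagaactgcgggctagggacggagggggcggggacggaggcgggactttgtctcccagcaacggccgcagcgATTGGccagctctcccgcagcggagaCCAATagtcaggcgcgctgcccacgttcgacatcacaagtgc
Mki67: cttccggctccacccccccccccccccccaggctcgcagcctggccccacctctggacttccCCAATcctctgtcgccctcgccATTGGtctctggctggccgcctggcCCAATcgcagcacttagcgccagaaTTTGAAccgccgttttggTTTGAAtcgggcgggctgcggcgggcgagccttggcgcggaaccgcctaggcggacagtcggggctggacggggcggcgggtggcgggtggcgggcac

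The RefSeq table held 32851 promoters of 27025 genes, some with several, and so is another comparison set than the protein-coding genes used below. All 7 matched promoters held CCAAT, which was found in 37.4% of the promoters of that table. The cell cycle homology region was in 6 of the 7, all except Ccnb1, against 19.2% of all promoters, and 7.52% of all promoters held both. Top2a had the most matches, with 6 CCAAT and 4 cell cycle homology regions in its window of 300 bases, a count of 3 or more that 3.37% and 0.310% of all promoters reached. Cdk1 and Mki67 each had 3 and 2, Aurka and Bub1 each 2 and 1, Plk1 1 of each, and Ccnb1 2 CCAAT. The cell cycle homology regions of Cdk1 began 45 bp upstream and 11 bp downstream of the TSS and that of Aurka 3 bp upstream. Those of Plk1 and Bub1 began 26 bp and 20 bp downstream. The last 3 lie past the end of the printed stretches. In Mki67 they began 134 and 116 bp upstream. The E2F-like words TTCCCGCC, TTTGGCGC, TTTCCCGC and TTTGGCGG, searched on both strands, were in 0 of the 7 windows and in 3.69% of all promoters. Only these words were searched. The similar word TTTCGCGC, which the printed Cdk1 stretch holds, was not, so E2F-like sites cannot be called absent from these windows. The 7 windows were rich in CpGs, with a median of 24 against 7 in the table, from 16 in Top2a to 32 in Mki67. Their median GC content was 57.7% against 52.7%. These matches are letters in a window, and no factor was measured at them.

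The lists held between 10582 and 10764 ATACseq peaks and between 47135 and 51450 H2A.Z peaks on the chromosomes used. Each peak has a fold, the reads at the site over the local background, and the lists are not scaled to each other, so folds are read within a list. The median fold was 4.31 in the WT and 4.05 in the Uhrf1hepKO ATACseq list, and 5.12 and 5.35 in the H2A.Z lists. The fewest reads that made an H2A.Z peak over the usual background were 11 in WT and 12 in Uhrf1hepKO. In ATACseq, only the most frequent pairs of fold and p-value were solved for reads, and the fewest among them were 8 and 9. ATACseq values are averaged over each peak, so the fewest reads over those whole lists were not found. Where a gene has no peak, none could be detected with the reads of that library. Of markers of hepatocytes, 2 of 10 in WT and 4 of 10 in Uhrf1hepKO had ATACseq in the 5 kb window, 2 and 1 had H2A.Z, and Apoa1, Serpina1a, Tat, Cps1 and Hnf4a had no peak in any list. The tissue could therefore not be checked through these markers. A peak within 5 kb of the TSS of Uhrf1 was in all 4 lists, which does not test the deletion.

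**Figure D1:**
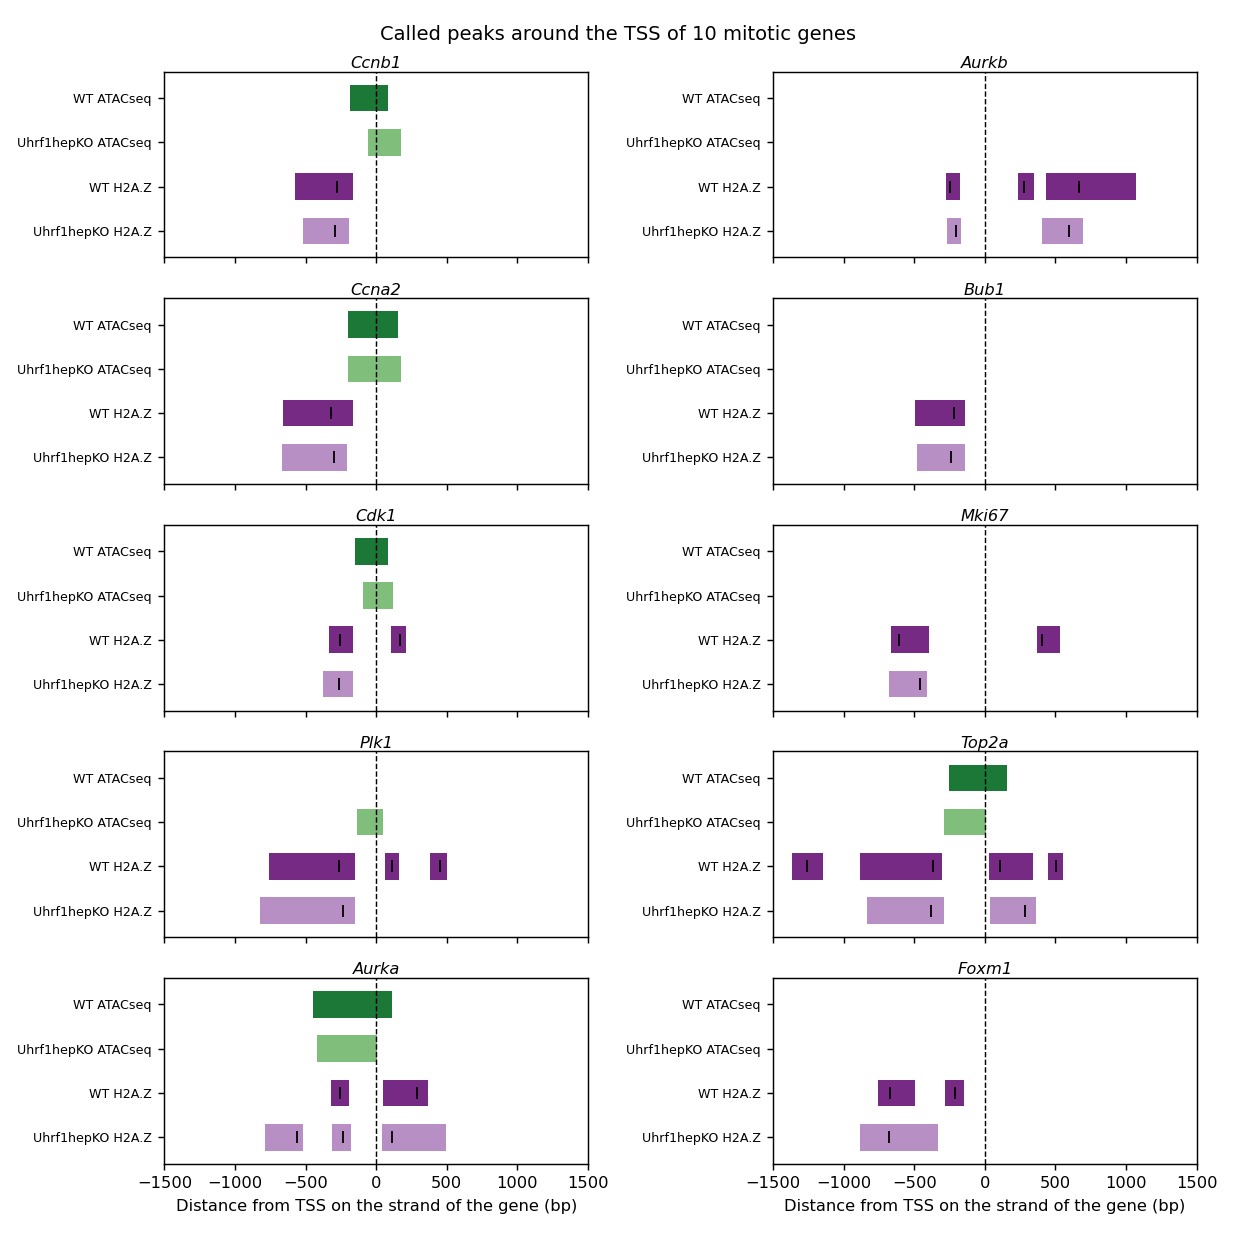
Called peaks (bars) from 1500 bp upstream to 1500 bp downstream of the TSS of each gene, with distance in bp on the strand of the gene on the x axis and 1 row per library. Ticks mark H2A.Z summits. ATACseq peaks cover the TSS at Ccnb1, Ccna2, Cdk1, Aurka and Top2a in both genotypes and at Plk1 in Uhrf1hepKO, and every gene has an H2A.Z peak upstream in both genotypes. At Aurkb, further peaks 4023 bp (WT) and 4059 bp (Uhrf1hepKO) upstream and 1789 bp upstream in WT lie outside the panel.

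H2A.Z was called in the 5 kb window of all 10 genes in both genotypes, and fewer had a called ATACseq peak there. In WT, 5 genes had an ATACseq peak in this window (Ccnb1, Ccna2, Cdk1, Aurka and Top2a), against 30.2% of all protein-coding genes. In Uhrf1hepKO the same 5 genes and Plk1 had one, 6 in all, against 27.9%. Each of these genes had the peak over the TSS itself, which holds for 18.1% of protein-coding genes in WT and 16.2% in Uhrf1hepKO. The H2A.Z share of all protein-coding genes was 52.8% in WT and 51.0% in Uhrf1hepKO. Aurkb, Bub1, Mki67 and Foxm1 had H2A.Z in both genotypes and no ATACseq peak in either, a pattern of 18.3% of protein-coding genes that was counted after the peaks had been seen. That share includes genes without H2A.Z, while all 10 genes had it. The pattern was at 4009 protein-coding genes, and at least 10512 had H2A.Z in both genotypes. Beside these, 4 of 10 genes is near the common share. Since the livers were bulk tissue, fewer cells with a signal and less signal in each cell cannot be told apart.

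Where genes had a peak, the median of the highest fold was 6.29 in WT and 5.98 in Uhrf1hepKO for ATACseq, beside 4.65 and 4.42 over all protein-coding genes with a peak. For H2A.Z it was 7.31 and 8.13, beside 7.07 and 7.44. In and around these genes, 6 ATACseq and 30 H2A.Z peaks were called in WT and 7 and 19 in Uhrf1hepKO. Folds ran from 4.54 to 7.56 in WT ATACseq, from 3.48 to 7.82 in Uhrf1hepKO ATACseq, from 2.92 to 11.70 in WT H2A.Z and from 3.95 to 11.16 in Uhrf1hepKO H2A.Z. The plot of the highest fold at each gene shows these values.

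**Figure D2:**
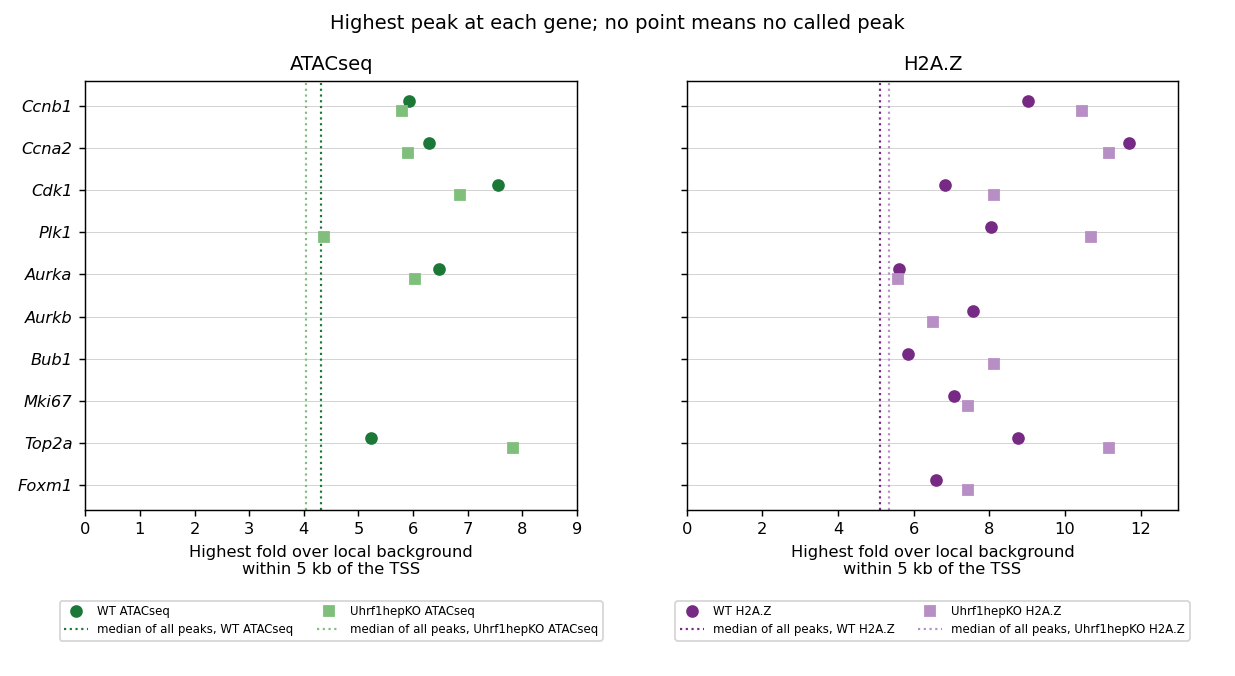
Highest fold over local background of any peak within 5 kb of the TSS (x axis) for each gene (y axis), ATACseq on the left and H2A.Z on the right. Circles are WT, squares are Uhrf1hepKO and dotted lines are the median fold of all peaks of each list. All plotted folds lie above the median of their own list, which is a median of single peaks while each point is the highest of a gene. The like medians over all protein-coding genes with a peak are 4.65 (WT) and 4.42 (Uhrf1hepKO) in ATACseq. In H2A.Z they are 7.07 and 7.44, and some points lie below them. Ccna2 has the highest WT H2A.Z fold, 11.70.

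Ccnb1 encodes cyclin B1, which switches on Cdk1 at the entry to mitosis. The gene (ENSMUSG00000041431, chr13:100778650-100786570, minus strand) had 1 ATACseq peak in each genotype, both over the TSS. The WT peak, chr13:100786485-100786758, had a fold of 5.92, which 12.2% of the list reached. The Uhrf1hepKO peak, chr13:100786397-100786625, had a fold of 5.79 (10.7%), with its centre in the UTR exon. Upstream of each lay 1 H2A.Z peak in intergenic sequence, with its summit 278 bp from the TSS in WT and 292 bp in Uhrf1hepKO. The WT fold of 9.02 came from 36 reads over the summit (exact 95% Poisson interval 25.2 to 49.8) and the Uhrf1hepKO fold of 10.46 from 44 reads (32.0 to 59.1). These intervals, which here and below cover counting error only, overlapped. The ATACseq and H2A.Z peaks met by 21 bp in WT and did not meet in Uhrf1hepKO.

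Ccna2 encodes cyclin A2, which acts with Cdk2 and Cdk1 from S phase into early mitosis. The gene (ENSMUSG00000027715, chr3:36564865-36572150, minus strand) had the strongest WT H2A.Z peak of the 10 genes. That peak, chr3:36572313-36572808, lay upstream with its summit 319 bp from the TSS, had 47 reads (34.5 to 62.5) and a fold of 11.70, and only 1.39% of the list reached that fold. The Uhrf1hepKO peak, chr3:36572358-36572818, had its summit 301 bp upstream and also 47 reads, with a fold of 11.16 (2.74%). ATACseq peaks of 358 and 375 bp covered the TSS, with folds of 6.29 in WT and 5.91 in Uhrf1hepKO, and the WT peak lay wholly within the Uhrf1hepKO one. No H2A.Z peak was called downstream of the TSS of either cyclin gene.

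Cdk1, the kinase that drives entry into mitosis, had the highest WT ATACseq fold of the 10 genes. In this gene (ENSMUSG00000019942, chr10:69335146-69352938, minus strand) the WT peak over the TSS, chr10:69352853-69353086, had a fold of 7.56, which 2.98% of the list reached, and the Uhrf1hepKO peak, chr10:69352817-69353029, a fold of 6.86 (4.12%). H2A.Z summits flanked the TSS in WT, with 27 reads (17.8 to 39.3) at 254 bp upstream and 20 reads (12.2 to 30.9) at 172 bp downstream, in an intron. The upstream summit was at 260 bp in Uhrf1hepKO with 34 reads (23.5 to 47.5), and no downstream peak was called there.

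A second cluster of H2A.Z lay inside Cdk1, away from the TSS. In WT it had 4 peaks with summits 10218, 10707, 11012 and 11425 bp downstream of the TSS and with 20, 36, 28 and 21 reads. In Uhrf1hepKO it had 3, with summits at 10708, 11010 and 11337 bp and 46, 29 and 21 reads, the first of them 746 bp wide and overlapping both WT peaks of the cluster that lie nearest the TSS. The tallest WT peak of the cluster had a fold of 9.02 against 6.82 for the peak upstream of the TSS, and in Uhrf1hepKO these folds were 10.92 and 8.13. In each genotype the cluster thus held more reads at its tallest summit than the start of the gene did, with overlapping intervals (25.2 to 49.8 against 17.8 to 39.3 in WT). A transcript of Cdk1 with a retained intron is annotated to start 10209 bp from the TSS of the gene, 34 bp from the centre of the nearest WT peak. A narrow Uhrf1hepKO ATACseq peak of 110 bp with a fold of 3.48 lay at 11000 bp, and 81.4% of that list had this fold or more. A WT H2A.Z peak at 4657 bp, with 18 reads, had no overlap in Uhrf1hepKO. The map of Cdk1 shows both sites.

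**Figure D3:**
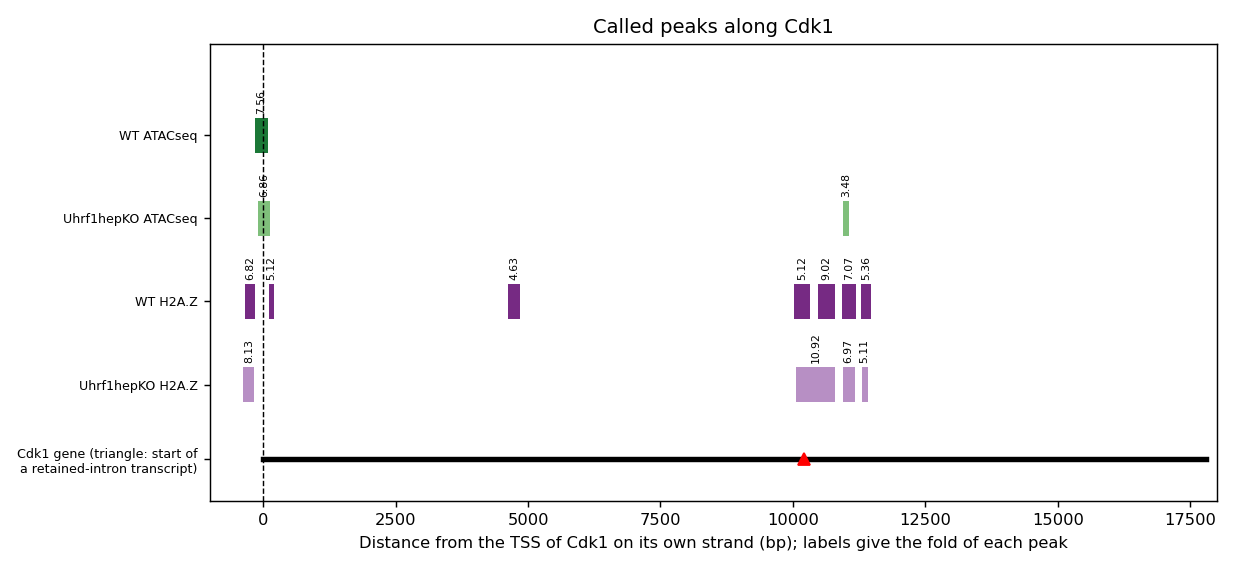
Called peaks along Cdk1, with distance from the TSS in bp on the x axis and 1 row per library, and the gene as a black line with a triangle at the start of the retained-intron transcript (10209 bp). Numbers give the fold of each peak. Beside the TSS, H2A.Z peaks of both genotypes gather from 10218 to 11425 bp downstream.

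Plk1, a kinase that acts in spindle assembly and mitotic exit, was the only one of the 10 genes with an ATACseq peak at the TSS in 1 genotype. Its TSS (ENSMUSG00000030867, chr7:122159439-122169873, plus strand) lies 38 bp from that of the antisense gene Gm15489. The Uhrf1hepKO ATACseq peak, chr7:122159302-122159483, had a fold of 4.36, close to the middle of its list (38.4% had this fold or more). The nearest WT ATACseq peak was 26390 bp away, in an exon of Palb2. H2A.Z upstream had 32 reads (21.9 to 45.2) at 263 bp in WT and 45 reads (32.8 to 60.2) at 236 bp in Uhrf1hepKO, with folds of 8.04 and 10.69. Downstream, WT had 2 weaker peaks over coding exons, at 115 bp with 16 reads (9.15 to 26) and at 453 bp with 17 reads (9.90 to 27.2), and Uhrf1hepKO had 0. Which of the 2 genes at this start the signal belongs to cannot be told apart.

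Aurka encodes the Aurora kinase of centrosomes and the spindle poles. It stands head to head with Cstf1, a subunit of the cleavage stimulation factor, with 146 bp between their starts (ENSMUSG00000027496, chr2:172356190-172370535, minus strand). The ATACseq peaks were wide, 561 bp in WT (chr2:172370421-172370981, fold 6.48) and 422 bp in Uhrf1hepKO (chr2:172370532-172370953, fold 6.04), and covered both starts. In contrast to the cyclin genes, the nearest upstream H2A.Z peak lay wholly under the ATACseq peak, 133 bp in WT and 134 bp in Uhrf1hepKO, over a UTR exon of Cstf1. Reads on the 2 sides of the TSS were nearly equal, 22 upstream and 21 downstream in WT and 23 on each side in Uhrf1hepKO. A further Uhrf1hepKO peak 559 bp upstream, in an intron of Cstf1, had 17 reads. Taking the highest fold within 1 kb upstream of each gene, that of Aurka was the lowest of the 10 in Uhrf1hepKO, at 5.58. The signal of the 2 genes cannot be told apart.

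Aurkb, the Aurora kinase of the chromosomal passenger complex (ENSMUSG00000020897, chr11:69045647-69051664, plus strand), had no ATACseq peak in either list. The nearest was 25022 bp away in WT, and in Uhrf1hepKO it was 5149 bp upstream with a fold of 3.68, just outside the window. H2A.Z lay on both sides in both genotypes. Upstream, the summit had 22 reads (13.8 to 33.3) at 245 bp in WT and 24 reads (15.4 to 35.7) at 206 bp in Uhrf1hepKO. Downstream, the strongest had 23 reads at 667 bp in WT and 20 reads at 597 bp in Uhrf1hepKO. WT had another peak at 277 bp, in a UTR exon, with 18 reads. The tallest H2A.Z peak in the window of Aurkb was not at the TSS but in intergenic sequence 4023 bp upstream in WT (30 reads, fold 7.56) and 4059 bp in Uhrf1hepKO (27 reads, fold 6.51). A weak WT peak of 12 reads lay 1789 bp upstream.

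Bub1, a kinase of the spindle checkpoint (ENSMUSG00000027379, chr2:127801122-127831865, minus strand), had H2A.Z on the upstream side only and no ATACseq peak. The nearest ATACseq peaks were 13695 bp away in WT and 39337 bp in Uhrf1hepKO. The H2A.Z peak, chr2:127832006-127832361 in WT and chr2:127832008-127832345 in Uhrf1hepKO, had 30 reads (20.2 to 42.8) and 34 reads (23.5 to 47.5), with summits 216 and 243 bp from the TSS. Its folds were 5.84 and 8.13, further apart than its reads, as the WT peak was set against a local background of 4.3 reads per base in place of 3.1. A WT peak of 14 reads in an intron, 16418 bp downstream, had no overlap in Uhrf1hepKO.

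Mki67 encodes Ki-67, the proliferation marker that coats mitotic chromosomes (ENSMUSG00000031004, chr7:135689784-135716361, minus strand). Its nearest upstream H2A.Z summit lay further from the TSS than those of the genes above, at 610 bp in WT (28 reads, 18.6 to 40.5) and 462 bp in Uhrf1hepKO (31 reads, 21.1 to 44.0). The WT list also had a weak downstream peak of 12 reads (6.20 to 21.0) at 401 bp, a fold of 3.17 that 98.5% of the list reached. The 5 kb window held no ATACseq peak. The WT list had 1 over a coding exon 11928 bp downstream, of 133 bp and fold 4.54, and the nearest in Uhrf1hepKO was 19388 bp away and upstream of the gene.

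Top2a encodes topoisomerase II alpha, which untangles sister chromatids (ENSMUSG00000020914, chr11:98992943-99024189, minus strand). Its ATACseq fold was 5.22 in WT, which 23.7% of the list reached, and 7.82 in Uhrf1hepKO, which 2.15% reached, the highest of the 10 genes in that list. The WT peak, chr11:99024033-99024445, was centred 50 bp upstream of the TSS, and the Uhrf1hepKO peak, chr11:99024182-99024480, 142 bp upstream, so that it only just covered the TSS. The lists are not scaled and have 1 library each, so this shift of place in the list was not tested. H2A.Z upstream had 35 reads (24.4 to 48.7) at 365 bp in WT and 47 reads (34.5 to 62.5) at 381 bp in Uhrf1hepKO. Downstream it had 25 reads (16.2 to 36.9) at 104 bp in WT and 28 reads (18.6 to 40.5) at 282 bp in Uhrf1hepKO. WT had weaker peaks at 503 bp downstream (17 reads) and 1258 bp upstream (11 reads). Intronic peaks were called at 17021 bp in WT (22 reads) and 26736 bp in Uhrf1hepKO (16 reads), with no overlap between genotypes.

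Foxm1 encodes the forkhead factor that activates genes of this group (ENSMUSG00000001517, chr6:128362967-128376146, plus strand). Its TSS is 56 bp from that of Rhno1, on the opposite strand, and the start of Gm44371, a gene model on the same strand, lies 3449 bp upstream. All H2A.Z peaks in its window lay over a UTR exon of Rhno1. The strongest summit was 675 bp upstream in WT (26 reads, 17 to 38.1) and 676 bp in Uhrf1hepKO (31 reads, 21.1 to 44.0), with folds of 6.58 and 7.44. WT had a second peak 215 bp upstream with 14 reads. The Uhrf1hepKO peak, 554 bp wide, covered the stronger WT peak and ended before the weaker one. The nearest ATACseq peaks were 61602 bp away in WT and 61647 bp away in Uhrf1hepKO, in a coding exon of Itfg2.

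The H2A.Z peaks in and around these genes had 14 summits upstream and 16 downstream of the TSS in WT, and 12 and 7 in Uhrf1hepKO. The sides are not alike, as upstream was limited to 5 kb and downstream took in the whole gene. Of the downstream peaks, 6 in WT and 4 in Uhrf1hepKO lay outside the 5 kb window. The highest H2A.Z fold within 1 kb of the TSS was upstream at 9 of 10 genes in WT, against 66.4% of the 10016 protein-coding genes with a summit there. In Uhrf1hepKO it was also 9 of 10, against 66.7% of 9675. Aurkb was the exception in WT. In Uhrf1hepKO it was Aurka, whose sides were equal at a fold of 5.58. Just upstream of Plk1, Aurka and Foxm1 a gene on the opposite strand starts (Gm15489, Cstf1 and Rhno1). The upstream summits of these members lie downstream of that other start. Summits on both sides within 1 kb were found at 6 genes in WT (Cdk1, Plk1, Aurka, Aurkb, Mki67 and Top2a), against 22.8% of all protein-coding genes. They were found at 3 in Uhrf1hepKO (Aurka, Aurkb and Top2a), against 20.9%. Those shares include genes with no summit within 1 kb, while all 10 genes had one. Of protein-coding genes with a summit there, both sides had one at 5009 of 10016 in WT and 4576 of 9675 in Uhrf1hepKO. Beside these the 6 genes in WT are near the common share, and the 3 in Uhrf1hepKO are below it. Where both sides had a summit, the nearest of each side were 378 to 1011 bp apart in WT and 346 to 803 bp in Uhrf1hepKO. The count of upstream genes was made after the peaks had been seen.

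Overlap between genotypes was counted by gene and by peak. An ATACseq peak in the TSS window overlapped at 5 genes, against 22.6% of protein-coding genes, and an H2A.Z peak at all 10, against 47.9%. Those shares include genes with no peak to overlap. An H2A.Z peak overlapped at 10512 of the 11579 genes with one in WT and the 11193 with one in Uhrf1hepKO. For ATACseq it was 4962 of 6622 and 6110 genes. Overlap was thus common wherever a peak was called. Of the 30 WT H2A.Z peaks, 18 overlapped a Uhrf1hepKO peak, against 70.0% of all WT H2A.Z peaks and 73.8% of those in a protein-coding gene or within 5 kb of its start. Of the 19 Uhrf1hepKO peaks, 17 overlapped a WT peak, against 75.6% and 80.0%. These counts of peaks were made after the peaks had been seen, and peaks of 1 gene are not independent. The WT peaks without an overlap had 11 to 22 reads over the summit and those with one 20 to 47. The fewest reads of a called peak over the usual background of the Uhrf1hepKO list were 12.

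Reads over the strongest upstream summit were higher in Uhrf1hepKO than in WT at 9 of 10 genes and equal at Ccna2. They went from 36 to 44 at Ccnb1, from 27 to 34 at Cdk1, from 32 to 45 at Plk1 and from 35 to 47 at Top2a. At the other 5 genes (Aurka, Aurkb, Bub1, Mki67 and Foxm1) the reads differed by less. All 10 pairs of intervals overlapped. Over all 7513 protein-coding genes with an upstream summit in both genotypes, 60.7% had more reads in Uhrf1hepKO, with a median ratio of 1.07, and the median ratio at the 10 genes was 1.16. The reads are not scaled to library size, and the usual background was 3.30 reads per base in Uhrf1hepKO and 3.10 in WT. On the downstream side, 3 of the 6 genes with a WT summit had one in Uhrf1hepKO, against 82.7% of the 6732 protein-coding genes with a WT summit there. The 3 without one were Cdk1, Plk1 and Mki67, with 20, 17 and 12 reads in WT. Their WT intervals begin at 12.2, 9.90 and 6.20 reads, beside the 12 reads of the weakest such Uhrf1hepKO peaks. Both counts were made after the peaks had been seen.

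**Figure D4:**
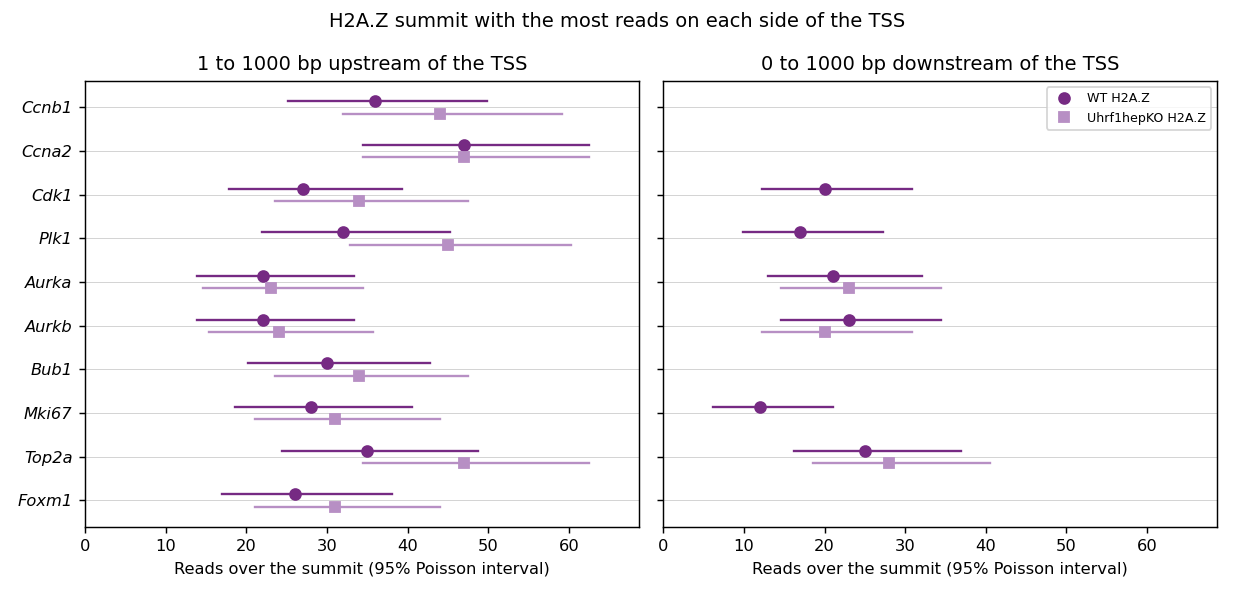
Reads over the H2A.Z summit with the most reads within 1 kb upstream (left) and downstream (right) of the TSS, for each gene, with WT as circles and Uhrf1hepKO as squares. Lines are exact 95% Poisson intervals, which cover counting error only, and no point means no called summit. Upstream the intervals of the genotypes overlap at all 10 genes, and downstream Cdk1, Plk1 and Mki67 have a WT point only.

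Other genes of mitosis were described in the same way. On a list of kinesins, kinetochore, checkpoint and condensin genes, 49 of 50 names were found (the older symbol Sgol1 was not, and its newer name Sgo1 was). Of these, 35 (71.4%) had WT ATACseq in the window and 37 (75.5%) Uhrf1hepKO ATACseq, and 46 (93.9%) and 44 (89.8%) had H2A.Z. Over all protein-coding genes these shares were 30.2% and 27.9% for ATACseq and 52.8% and 51.0% for H2A.Z. The median of the highest fold was 5.75 and 5.32 for ATACseq, beside 4.65 and 4.42 over all protein-coding genes with a peak. For H2A.Z it was 8.90 and 8.95, beside 7.07 and 7.44. The highest WT ATACseq folds were at Kif18a (10.38), a kinesin of chromosome alignment, Cdca8 (9.56), a partner of Aurkb in the passenger complex, and Cdc25c (9.46), the phosphatase that activates Cdk1. The highest WT H2A.Z folds were at Kif20a (14.62), Pttg1 (13.89), which encodes securin, and Nuf2 (13.16), a kinetochore protein. Birc5, which encodes survivin, was the 1 gene of this list with no peak in any library.

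Of 12 genes of the DREAM and MuvB complexes, 7 (58.3%) had a WT and 6 a Uhrf1hepKO ATACseq peak, and 11 (91.7%) an H2A.Z peak in each genotype. The shares of all protein-coding genes were 30.2% and 27.9% for ATACseq and 52.8% and 51.0% for H2A.Z. Their ATACseq folds were close to those of all genes, with medians of 4.35 and 4.34 beside 4.65 and 4.42. The H2A.Z medians were 8.04 and 7.67 beside 7.07 and 7.44. E2f5 (6.41), Lin37 (5.39) and Rbbp4 (4.49) had the highest WT ATACseq folds. Rbl2 (11.94), which encodes the pocket protein p130 of the DREAM complex, Lin37 (11.46) and Lin52 (9.99), both MuvB subunits, had the highest WT H2A.Z folds. Mybl2, which encodes B-Myb, had ATACseq peaks in both genotypes and no H2A.Z peak.

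Markers of other cells of the liver had few peaks. None of 6 endothelial markers had one in any list. Of 6 markers of Kupffer cells only Cd68 had a peak, in H2A.Z of both genotypes. Of 6 cholangiocyte markers Sox9 and Spp1 had H2A.Z in both genotypes, with an ATACseq peak at Sox9 in WT (3.56). Colec11 and Dcn of 6 stellate markers and Cd4 of 6 lymphocyte markers had H2A.Z peaks with folds from 3.90 to 4.65. Of 10 genes of other tissues, Neurod1 and Gfap had H2A.Z in both genotypes. The part of such cells in the peaks at the mitotic genes was not tested. The bar plot of gene lists shows the shares.

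**Figure D5:**
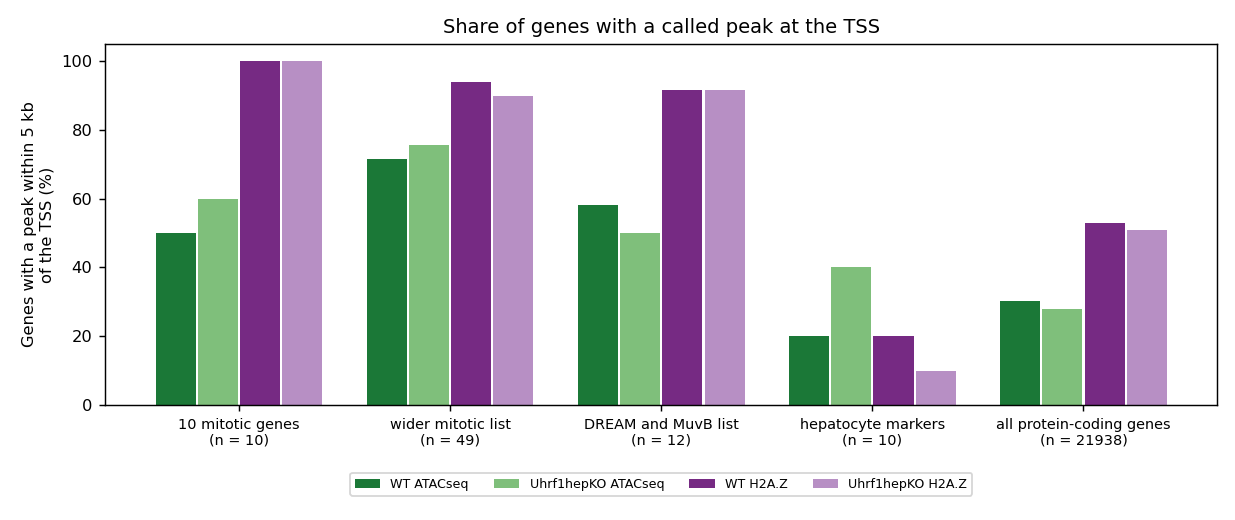
Share of genes (y axis, percent) with a called peak within 5 kb of the TSS in each library, for the 10 mitotic genes, the wider mitotic list, the DREAM and MuvB list, the hepatocyte markers and all protein-coding genes, with the number of genes under each. H2A.Z bars reach 100% at the 10 genes and 52.8% (WT) and 51.0% (Uhrf1hepKO) over all protein-coding genes. Of the 10 hepatocyte markers, 1 to 4 have a peak in each library.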

How the data were processed

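ATACseq and H2A.Z ChIPseq of 1 WT and 1 Uhrf1hepKO liver were used, as 1 peak list per library. BWA-MEM alignments to GRCm38.p4 were cleaned with PICARD by the authors, who called peaks on each library with MACS2. The submitters' processing notes also name FastQC 0.11.5 and Trimmomatic. The paper describes the ATACseq calls as broad, with a p-value setting of 0.05. The largest q-value in the lists was 0.0997 (WT) and 0.0993 (Uhrf1hepKO) in ATACseq and 0.0500 and 0.0489 in H2A.Z. The assays were therefore not cut at a like q-value. A shift for Tn5, any control library, the MACS2 version and the mode used for H2A.Z are not given in the sources used here. Each deposited peak has a display score, a fold (the ratio of pileup to local background, averaged over the region in ATACseq and taken at the summit in H2A.Z), and −log10 p- and q-values made the same way by the authors' caller. The deposited H2A.Z summit is another value, an offset in bp.

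Peaks of the autosomes, X and Y were assigned to genes of GENCODE vM21, with an overlap of at least 1 bp, a TSS window of 5 kb and a side window of 1 kb for summits. MACS2 writes the H2A.Z fold as reads plus 1 over background plus 1, and the p-value from a Poisson law, so that the whole reads over each summit could be solved for. They were recovered for 100% of peaks within 0.001 of the deposited −log10 p. The depth is known only through these reads and backgrounds. No test was made with 1 library per group. Every one of the 10 genes is named, with genes whose TSS lies within 5 kb of theirs, and from the wider mitotic and the DREAM and MuvB lists up to 3 genes with the highest WT fold in each assay and up to 5 with no peak. The genes and lists were chosen with earlier results of these data known. Windows, start sites, overlap, fold and q-value limits were varied 1 at a time. On simulated data 200 of 200 planted genes were found and reads were right for 1000 of 1000 peaks. The simulated data were made with the same formulas and window, so they check the code and not the deposited values. Scripts ran in Python 3.11.15 with scipy 1.17.1, pandas 2.3.3, numpy 2.4.6 and, for figures, matplotlib 3.10.9.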

Additional observations from a re-analysis of the deposited data

How the results depend on the processing

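For 10 counts of genes given above, 32 values were computed under the alternatives that apply to each, and all were within 1.5 times the count given. With 1 kb around the TSS, with any annotated transcript start, with only the stronger peaks (those not below the list's median fold), or with q-values of at most 0.01, the counts with a peak stayed at 5 (WT) and 6 (Uhrf1hepKO) for ATACseq and at 10 for H2A.Z. The count of genes with H2A.Z summits on both sides moved most. It went from 6 to 4 in WT and from 3 to 2 in Uhrf1hepKO with the stronger peaks, to 5 and 3 with q-values of at most 0.01, and to 5 and 2 with summits within 500 bp. With an overlap of at least 50% of both peaks, H2A.Z overlapped between genotypes at 9 genes, all except Foxm1. With summits within 500 bp, an alternative chosen after seeing the data, the highest fold was upstream at 9 genes in WT and 8 in Uhrf1hepKO. The WT genes were not the same, as Aurkb, the exception within 1 kb, joined them and Mki67 dropped out. In Uhrf1hepKO Foxm1 dropped out. No paired analysis was possible because each assay and genotype has 1 library. Weak sites have no peak and so no value, and differences between genotypes and between mice cannot be told apart.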
